A study of Mus musculus with 6 samples.

Results

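Tfcp2l1, Fbxo15, L1td1, Utf1, Fgf4, Jam2, Dppa5a and Esrrb are 8 genes of the pluripotent state that lay above background in cells on the way from fibroblast to stem cell. They are 8 of the 18193 genes named on the arrays, and were selected on their measured intensities on these arrays, as genes above background that switch on early. Their levels over the days are therefore given as a description, without a test. Not every value was above background, and Dppa5a did not follow such a course. Every probe set that the annotation of the platform assigns to exactly 1 of these genes was taken, which gave 21 of 45101 probe sets. The brightest of them, by its mean over the arrays, stands for its gene unless another is named.

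Embryonic fibroblasts from B6CBAF1/J mice were followed while OCT4, SOX2 and KLF4 drove them towards pluripotency. The groups differ in the OCT4 protein: wild type in O(WT)SK, and a form labelled 5R in O(5R)SK, whose alteration the labels do not describe. Total RNA was taken on days 3, 5 and 7, with 1 Affymetrix array for each combination and day, 6 arrays in all. All cultures received SOX2 and KLF4 and grew in serum medium with leukemia inhibitory factor (LIF), and fibroblasts without the factors are not analysed here. No combination has a replicate on any day, so the error of a factor difference comes from its spread over the 3 days, moderated over genes by limma. Nothing says whether the arrays of different days came from separate cultures.

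Naive mouse embryonic stem cells are held in self-renewal by a network of transcription factors around OCT4, SOX2 and NANOG, fed by LIF through STAT3. Tfcp2l1 and Esrrb are transcription factors of that network, and Utf1 is a chromatin-bound protein found almost entirely in pluripotent and germ cells. Fbxo15, Utf1 and Fgf4 are classical targets of OCT4 and SOX2, which bind side by side in their enhancers, and Fbxo15 has long served as a reporter of reprogramming. During reprogramming such genes are switched on from silent chromatin in a minority of cells at first. In bulk RNA, fewer cells that express a gene and less RNA per cell cannot be told apart.

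The sequence before the start of a gene is shown here because the factors supplied bind DNA. RefSeq promoters (GRCm38.p6) were at hand for 5 of the 8 genes. The 250 bases before the start are printed for the 4 of them with a marked match, all on the + strand, 5′ to 3′. Capitals mark KLF core matches (GGGNGTGG), GC boxes (GGGCGG) and TATA boxes (TATAAA), on either strand.
Tfcp2l1, chr1:118627695-118627944: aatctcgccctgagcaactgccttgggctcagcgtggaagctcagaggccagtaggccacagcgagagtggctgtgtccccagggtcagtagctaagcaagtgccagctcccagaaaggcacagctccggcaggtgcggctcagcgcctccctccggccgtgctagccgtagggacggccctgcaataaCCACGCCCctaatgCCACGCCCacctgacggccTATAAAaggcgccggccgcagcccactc
L1td1, chr4:98726504-98726753: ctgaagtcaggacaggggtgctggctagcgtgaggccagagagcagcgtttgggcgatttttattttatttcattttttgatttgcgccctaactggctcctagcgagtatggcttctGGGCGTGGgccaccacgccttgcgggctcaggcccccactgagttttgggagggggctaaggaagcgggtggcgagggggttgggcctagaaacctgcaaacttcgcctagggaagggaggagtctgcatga
Utf1, chr7:139943606-139943855: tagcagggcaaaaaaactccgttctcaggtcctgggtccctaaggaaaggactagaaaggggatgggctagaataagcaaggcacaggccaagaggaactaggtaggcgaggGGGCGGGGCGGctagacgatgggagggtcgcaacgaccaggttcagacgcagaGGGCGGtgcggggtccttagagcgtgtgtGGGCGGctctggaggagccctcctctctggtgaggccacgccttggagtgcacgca
Fgf4, chr7:144861136-144861385: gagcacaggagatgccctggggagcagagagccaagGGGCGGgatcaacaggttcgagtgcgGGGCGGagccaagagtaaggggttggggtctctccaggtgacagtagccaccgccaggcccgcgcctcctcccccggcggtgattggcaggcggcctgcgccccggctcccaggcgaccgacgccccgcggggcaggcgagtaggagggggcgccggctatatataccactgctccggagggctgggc

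The Tfcp2l1 promoter held 2 KLF core matches, beginning at positions -61 and -47 from the start, and a TATA box at -28. L1td1 had 1 KLF core match at -132. Utf1 carried 4 GC boxes, at -138, -133, -85 and -56, of which the first pair overlaps by 1 base, and Fgf4 carried 2, at -214 and -188. None of the 4 windows held an octamer (ATGCAAAT), a SOX core (CATTGT), an ESRRB core (AAGGTCA) or the TFCP2L1 pair (CCAG, any 6 bases, CCAG), and the 2 Esrrb entries held no match to any of the 7 motifs. Among all 32851 promoters of the same length, 15.9% held a KLF core, 32.7% a GC box, 12.4% a TATA box, 1.6% an octamer, 10.7% a SOX core, 4.08% an ESRRB core and 2.78% a TFCP2L1 pair. A match is a run of letters and no measure of binding. Among the 4 printed windows, GC content ran from 57.6% in L1td1 to 71.2% in Fgf4.

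On the whole arrays, the deposited intensities had a 2% trimmed mean of 500 each. The median intensity lay between 59.0 and 68.0 and was highest on O(5R)SK day 7, the array on which the 3′ probe set for Gapdh read 17665, against 21995 to 23810 on the other arrays. On O(5R)SK day 3 the 3′ over 5′ ratio of the spiked dap control was 3.09, against 2.26 to 2.76 elsewhere. The part of these differences in the results was not tested. Of 10 fibroblast markers, 10 lay above background on all 6 arrays. This does not single out fibroblasts, since 5 of 6 macrophage markers and 4 of 8 endothelial markers did so too. Array intensities of different probe sets are not on a common scale, so levels are compared between arrays and never between genes.

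A background level was set on each array at the 95th percentile of 44 probe sets for olfactory receptors, genes that fibroblasts are not known to use. It lay between 32.1 and 37.5 with O(WT)SK up to day 7 and on O(5R)SK day 3, and at 44.4 and 39.7 on O(5R)SK days 5 and 7. The 8 genes exceeded it in 38 of 48 values. With O(WT)SK, 5 genes were above it on day 3, 6 on day 5 and 8 on day 7. With O(5R)SK the numbers were 4, 7 and 8. L1td1, Fgf4 and Jam2 were above background on every array, so for these 3 the values describe a change of level and not an onset.

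**Figure D1:**
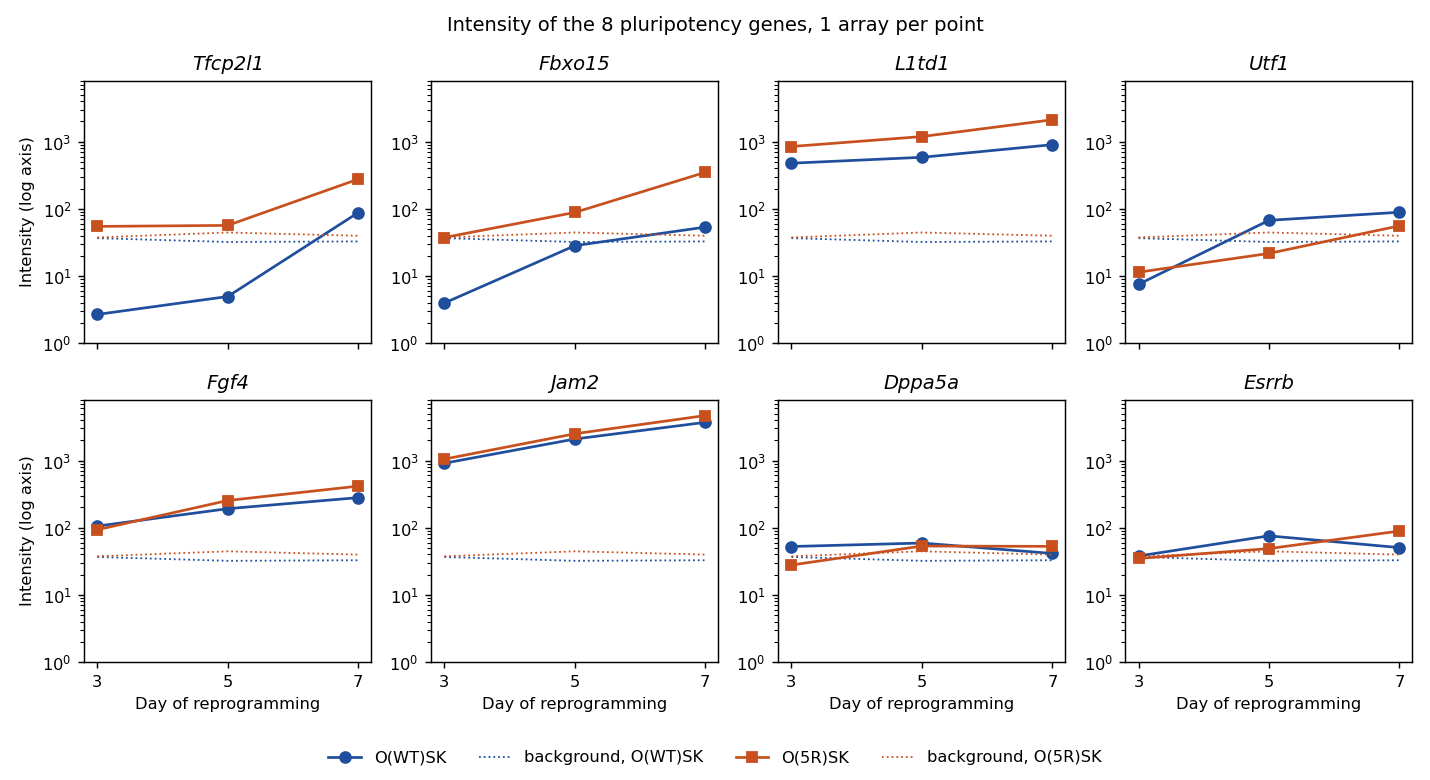
Intensity of each of the 8 genes (log axis) by day of reprogramming, 1 point per array, circles for O(WT)SK and squares for O(5R)SK, with the background level of the arrays. Tfcp2l1 began at 2.68 and 4.95 (O(WT)SK, days 3 and 5) and reached 276 (O(5R)SK, day 7), whereas Dppa5a stayed between 27.8 and 59.1.

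Among the transcription factors, Tfcp2l1, a CP2 family protein that acts downstream of LIF and STAT3, passed background from day 3 with O(5R)SK and on day 7 with O(WT)SK. Its intensities on days 3, 5 and 7 were 2.68, 4.95 and 87.7 on the O(WT)SK arrays and 54.8, 56.7 and 276 on the O(5R)SK arrays, an order of days kept below. The O(WT)SK arrays of days 3 and 5 lay below background and the 4 other arrays above it. On the log2(intensity + 16) scale used throughout, day 7 exceeded day 3 by 2.05 with O(5R)SK, as a step of 0.04 up to day 5 and one of 2.01 after it. The O(WT)SK value, 2.47, starts from an array below background. In intensity, with the background level in place of any lower value below it, day 7 was at least 2.40-fold over day 3 with O(WT)SK, and it was 5.05-fold over it with O(5R)SK. Such bounds were chosen after seeing the data.

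Esrrb, an orphan nuclear receptor that can stand in for other naive factors in stem cells, stayed near background. Its intensities were 37.9, 75.6 and 50.5 on the O(WT)SK arrays and 34.8, 48.8 and 89.1 on the O(5R)SK arrays. The highest O(WT)SK array was that of day 5 and the highest O(5R)SK array that of day 7, and the ranges overlapped. Day 7 exceeded day 3 by 0.30 and 1.05. The SD of Esrrb over the 6 arrays, 0.42 on the log2 scale, lay just below the median SD of the olfactory receptor probe sets, 0.43.

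Utf1, which keeps stem cell chromatin in a state that can differentiate, was the one gene of the 8 to read lower with O(5R)SK on both days 5 and 7. Its intensities were 7.52, 67.4 and 88.9 on the O(WT)SK arrays and 11.4, 21.7 and 55.9 on the O(5R)SK arrays. Both day 3 arrays were below background, and O(WT)SK passed it on day 5 while O(5R)SK did so on day 7. Day 7 read 2.16 above day 3 with O(WT)SK and 1.39 above it with O(5R)SK, sizes that rest on day 3 values below background. As bounds in intensity, day 7 was at least 2.43-fold over day 3 with O(WT)SK and at least 1.49-fold with O(5R)SK.

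Fbxo15 encodes an F-box protein, the substrate-binding part of a ubiquitin ligase, and is dispensable in stem cells although it marks them. Its intensities were 3.96, 28.3 and 53.4 on the O(WT)SK arrays and 37.4, 88.4 and 349 on the O(5R)SK arrays. Each O(5R)SK array read higher than the O(WT)SK array of its day, and the O(5R)SK day 5 array exceeded the O(WT)SK day 7 array. The O(WT)SK arrays of days 3 and 5 and the O(5R)SK array of day 3 were not above background, so no size is given for the steps between them. Day 7 was at least 1.46-fold over day 3 with O(WT)SK and at least 9.32-fold with O(5R)SK, as bounds in intensity. After day 5 the log2 step with O(5R)SK was 1.81, between arrays above background.

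L1td1, an RNA-binding protein derived from the L1 retrotransposon, stood well clear of background from day 3. Its intensities were 478, 585 and 902 on the O(WT)SK arrays and 847, 1192 and 2119 on the O(5R)SK arrays. The O(5R)SK day 3 array already lay close to the O(WT)SK day 7 array. Day 7 exceeded day 3 by 0.89 and 1.31, and in both combinations the second step was the larger, at 0.61 after 0.28 with O(WT)SK and 0.82 after 0.48 with O(5R)SK.

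Dppa5a, a KH domain protein found in stem cells and germ cells, did not follow the description of a gene that switches on. Its intensities were 52.4, 59.1 and 41.3 on the O(WT)SK arrays and 27.8, 53.3 and 52.7 on the O(5R)SK arrays. The single array below background was O(5R)SK day 3, and day 7 differed from day 3 by -0.26 with O(WT)SK and 0.65 with O(5R)SK. Its SD over the arrays, 0.29, was smaller than the median SD of the olfactory receptor probe sets.

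Fgf4, the ligand through which stem cells activate ERK signalling on themselves and their neighbours, was above background on all arrays. Its intensities were 106, 192 and 280.1 on the O(WT)SK arrays and 93.3, 254 and 416 on the O(5R)SK arrays. On this brightest probe set O(WT)SK was the higher on day 3, and O(5R)SK on days 5 and 7. Day 7 exceeded day 3 by 1.28 and 1.98, with the larger step before day 5 in both combinations (0.77 and 1.30, followed by 0.51 and 0.68).

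Jam2, a junctional adhesion molecule of the immunoglobulin family that is also a marker of stem cell colonies, gave the most regular course. Its intensities were 912, 2089.8 and 3704 on the O(WT)SK arrays and 1049, 2504 and 4675 on the O(5R)SK arrays. Arrays of different days did not overlap, and O(5R)SK was the higher on each day. Day 7 exceeded day 3 by 2.00 and 2.14, of which 59.0% and 58.1% had been reached by day 5.

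Read against the array as a whole, day 7 was at least 2-fold over day 3 in both combinations for 5 of the 8 genes (all but L1td1, Dppa5a and Esrrb), where 2.01% of all 12622 tested genes met that rule. With a pseudocount of 64 the number was 3, and 3 also when the probe sets of a gene were averaged. It was 2, Fgf4 and Jam2, when values below background were raised to the background level. A higher value at each step in both combinations was found for 6 of the 8, against 14.9% of all genes, values below background included. The genes were named for this course, so nothing is read from these shares. The median difference of day 7 from day 3 was 1.70 over the 8 genes and 0.03 over all tested genes.

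The order of the 6 levels within a gene can be set against the error of a difference between arrays. This error was taken as √2 times the SD of the additive fit after limma had moderated it over all tested genes. It is therefore not the residual SD of the gene alone. For Jam2, with an error of 0.14, all 5 gaps between neighbours in that order were wider than the error. L1td1 had 1 gap of 5 within its error of 0.19, and Tfcp2l1, Fbxo15 and Fgf4 had 2 each. For Utf1, Dppa5a and Esrrb 4 of the 5 gaps lay within the error (0.47, 0.33 and 0.41), so the order of their levels was not resolved beyond the spread. At the filter on low values, an intensity of 33.5 for the mean over arrays, Utf1 lay just inside at 33.8 and Tfcp2l1 further inside at 46.7. Zscan10 at 32.1 and Nr5a2 at 31.9 were the nearest listed pluripotency genes outside.

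The question of whether the OCT4 form changed these genes was addressed by O(5R)SK minus O(WT)SK over the 3 days. Of the 8 genes, 4 (Tfcp2l1, Fbxo15, L1td1 and Jam2) read higher with O(5R)SK on every day, against 15.9% of all tested genes. On every day 0 read lower, against 17.9%. Nothing is read from these counts, since Tfcp2l1 and Fbxo15 passed the filter on low values only through O(5R)SK. Jam2 is counted by its brightest probe set, while its probe set 1419288_at read lower with O(5R)SK on every day (-0.14, -0.02 and -0.20). On the log2(intensity + 16) scale Tfcp2l1 and Fbxo15 were at least 2-fold higher on all days, a rule that 0.0792% of all genes met. Nothing is read from that share: both genes passed the filter on low values (log2 5.63) only through O(5R)SK, their O(WT)SK means being 5.10 and 5.30, and on day 3 both Fbxo15 arrays were not above background. With limma, 0 of the 8 passed an adjusted p of 0.05, as did 0 of 12622 genes (0%), the smallest adjusted p being 0.107. At an unadjusted p under 0.05 there were 4 of the 8 genes (Tfcp2l1, Fbxo15, L1td1 and Jam2) and 9.35% of all genes. Nothing is read from that count either, since it includes Tfcp2l1 and Fbxo15.

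Tfcp2l1 differed by 1.92, 1.79 and 1.5 on days 3, 5 and 7, with a mean of 1.74 (SE 0.113, limma adjusted p = 0.107). Its O(WT)SK values of days 3 and 5 lie under background, so that mean rests on the pseudocount, with 0.94 at a pseudocount of 64, 2.50 at 4, and 0.84 when values below background were raised to it. In intensity O(5R)SK was at least 1.50-fold higher on day 3, at least 1.77-fold on day 5 and 3.15-fold on day 7. Fbxo15 had a mean of 1.68 (SE 0.249, limma adjusted p = 0.284), which became 1.04, 2.17 and 1.18 under those settings. In intensity it was at least 2.76-fold higher with O(5R)SK on day 5 and 6.54-fold on day 7, with no fold for day 3. L1td1, far from background, differed by 0.81, 1.01 and 1.22, with a mean of 1.01 (SE 0.109, limma adjusted p = 0.232). Its mean was 0.96 to 1.02 over the alternatives that kept all arrays. With a trended, robust prior for the variances, the limma adjusted p was 0.0131 for Tfcp2l1, 0.0283 for Fbxo15 and 0.000927 for L1td1. Whether these 3 genes pass thus depends on how limma pools the variance. For Tfcp2l1 and Fbxo15, which passed the filter on low values only through O(5R)SK, nothing is read from any of these p-values. L1td1 also passed, at 0.0293, when only genes above the 60th percentile were tested.

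The other genes showed smaller or mixed differences. Jam2 differed by 0.20, 0.26 and 0.33, with a mean of 0.26 (SE 0.080, limma adjusted p = 0.478), and by 0.03 when its probe sets were averaged. Fgf4 differed by -0.15, 0.38 and 0.54, with a mean of 0.26 (SE 0.158, limma adjusted p = 0.661), which was 0.11 without the day 7 arrays and 0.46 without those of day 3. For Utf1 O(5R)SK was the higher on day 3, by 0.22, and the lower on days 5 and 7, by -1.15 and -0.55. Its mean was -0.49 (SE 0.271, limma adjusted p = 0.636), and -0.16 without the day 5 arrays. Utf1 passed the filter on low values only through O(WT)SK, with means of 5.88 there and 5.39 with O(5R)SK, so nothing is read from its test. The mean was -0.17 for Dppa5a (limma adjusted p = 0.781) and 0.03 for Esrrb (0.973).

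**Figure D2:**
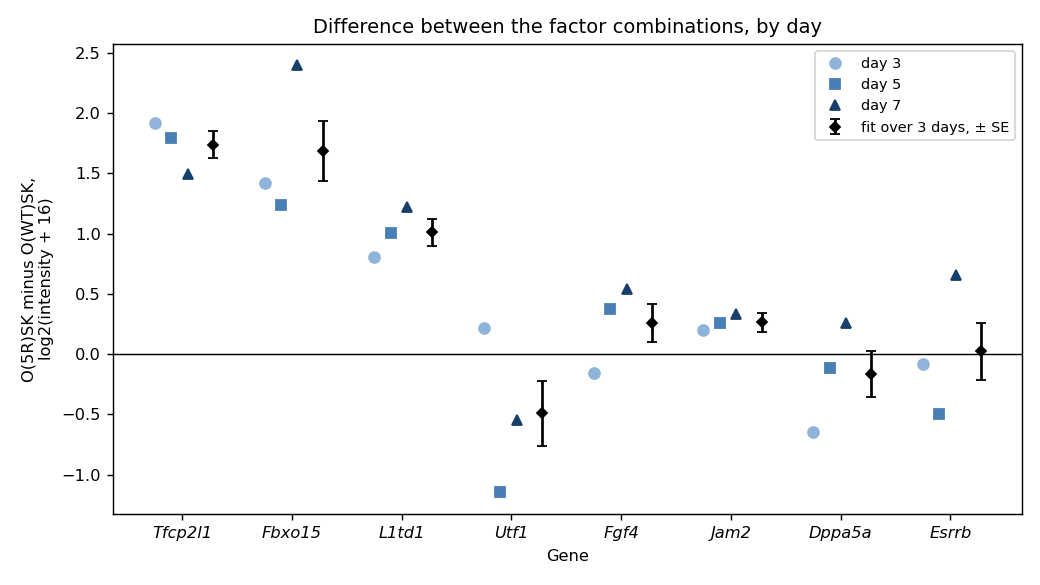
O(5R)SK minus O(WT)SK for each gene on the log2(intensity + 16) scale (vertical axis), 1 point per day. Diamonds and bars give the fit over the 3 days ± SE. Tfcp2l1, Fbxo15 and L1td1 lie above 0 on every day, and Utf1 reaches -1.15 on day 5.

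The number of genes higher with O(5R)SK was 5 of 8 on day 3, 5 on day 5 and 7 on day 7, against 50.1%, 47.2% and 47.6% of all tested genes. These counts take the brightest probe set of each gene. On day 7 every other Jam2 probe set read lower with O(5R)SK (-0.17, -0.20, -0.57 and -0.21). So did the other Esrrb probe sets (-0.35 and -0.98), which were above background on 1 and 3 arrays. At least 2-fold higher on the log2(intensity + 16) scale were 2, 3 and 3 genes, against 0.689%, 0.998% and 1.73%, with Tfcp2l1 and Fbxo15 counted on days when O(WT)SK lay below background. The median difference over the 8 genes was 0.21, 0.32 and 0.60, beside 0.00045, -0.014 and -0.017 over all genes. Nothing is read from these counts and medians. They include Tfcp2l1, Fbxo15 and Utf1, which passed the filter on low values only through the combination in which they were higher. For Fbxo15, L1td1 and Dppa5a, 3 of the 8, the O(5R)SK array of day 5 exceeded the O(WT)SK array of day 7, against 46.9% of all genes. Whether the course itself differed was tested by the difference of slopes, given per 4 days. It was positive for 6 of the 8 genes, against 48.6% of all, with a median of 0.56 against -0.01. From this count and median too nothing is read, as the same 3 genes are in them. With limma 0 of the 8 and 0 of 12622 genes (0%) passed, the smallest adjusted p being 0.647. At an unadjusted p under 0.05 there were 0 of the 8 genes and 949 of all genes, or 7.52%. The slope difference was 0.98 for Fbxo15 (SE 0.422, limma adjusted p = 0.695), the highest of the 8, and -0.77 for Utf1 (limma adjusted p = 0.803), the lowest, both with values below background in them.

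**Figure D3:**
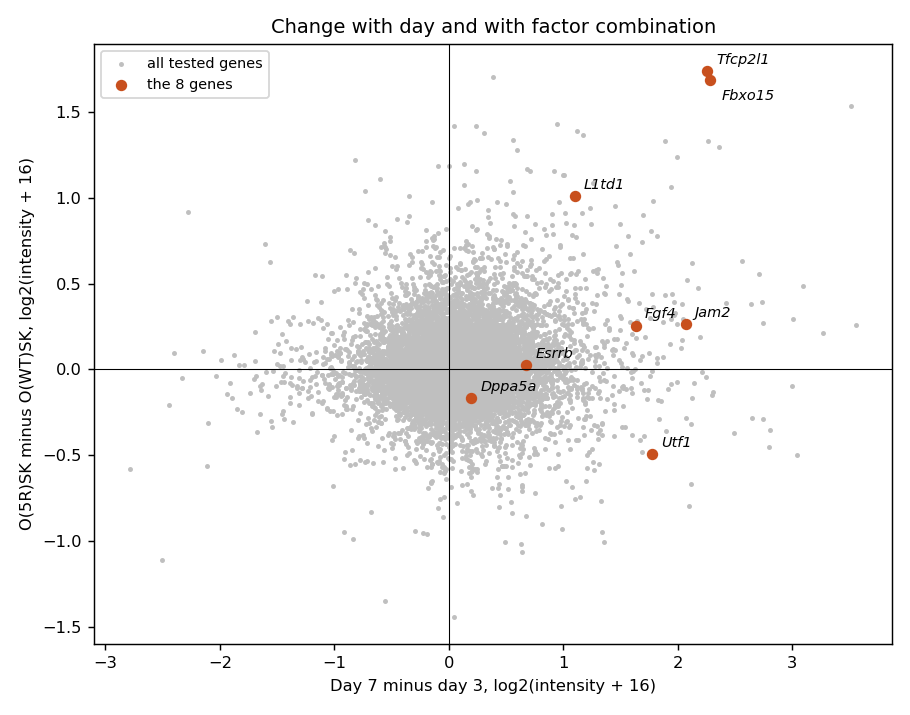
Mean difference of day 7 from day 3 (horizontal) and mean O(5R)SK minus O(WT)SK (vertical) for the 8 genes over all tested genes in grey, both on the log2(intensity + 16) scale. Tfcp2l1 (2.26 and 1.74) and Fbxo15 (2.29 and 1.68) lie at the upper edge, while Jam2 (2.07 and 0.26) is as far right but near the horizontal line.

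The probe sets of a gene did not always tell the same story. Of the 21 probe sets, 9 lay above background on all arrays and 4 on none, and 16 read higher on day 7 than on day 3 in both combinations. For Jam2 all 5 probe sets were above background, with mean differences of day 7 from day 3 of 2.07, 1.34, 1.58, 1.22 and 0.29. The last and dimmest of them, 1431417_at, stood between 113 and 175 and changed little. The O(5R)SK difference of Jam2 was not shared by the other probe sets, whose means were 0.05, -0.12, -0.10 and 0.05.

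For Fgf4, a second probe set, 1420085_at, read 56.3, 186 and 328 on the O(WT)SK arrays and 77.2, 223 and 408 on the O(5R)SK arrays. It was thus above background throughout, and its day 7 exceeded day 3 by 2.25 and 2.19, nearly alike in the 2 combinations. Probe set 1450282_at gave 0.50 and 0.53, and 1449729_at was below background on all arrays. Unlike the brightest, 1420085_at and 1450282_at read higher with O(5R)SK on day 3, by 0.37 and 0.40. On day 5 1450282_at read lower with O(5R)SK, by -0.68. The brightest, 1420086_x_at, carries the suffix that Affymetrix gives to probe sets with probes shared by other transcripts, as does the brightest Esrrb probe set.

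The remaining Tfcp2l1 probe sets never passed background, reaching 19.7 and 20.1 at most, so its course rests on 1 probe set. For Utf1, 1458333_x_at passed background on O(WT)SK day 3 alone, at 44.7, and 1443786_at nowhere, so Utf1 too rests on 1. The further Esrrb probe sets, 1436926_at and 1422986_at, were above background on 1 and 3 arrays. Unlike the brightest, both rose more with O(WT)SK. Day 7 exceeded day 3 by 1.46 and 1.37 with O(WT)SK and by 0.19 and 0.11 with O(5R)SK, from day 3 values below background. Their mean O(5R)SK differences were 0.15 and -0.39. Fbxo15, L1td1 and Dppa5a have a single probe set each.

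**Figure D4:**
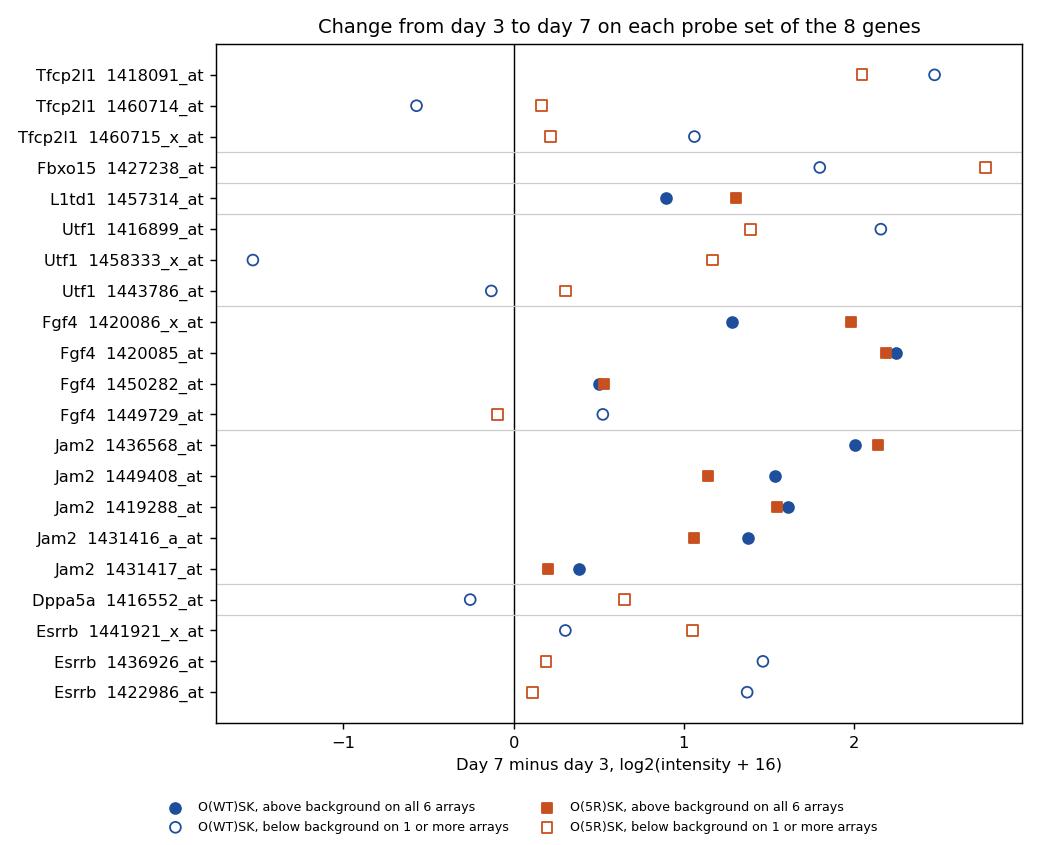
Day 7 minus day 3 on the log2(intensity + 16) scale for each of the 21 probe sets, circles for O(WT)SK and squares for O(5R)SK, filled where the probe set lay above background on all 6 arrays. The 5 Jam2 probe sets spread from 0.20 to 2.14. Open symbols mark every probe set of Tfcp2l1, Fbxo15, Utf1, Dppa5a and Esrrb, and 1449729_at of Fgf4.

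The likeness of each gene to the mean of the 7 others, as a Pearson r over the 6 arrays, was 0.937 for Jam2, 0.929 for Fgf4, 0.914 for Fbxo15, 0.874 for L1td1, 0.775 for Tfcp2l1, 0.721 for Esrrb, 0.589 for Utf1 and 0.167 for Dppa5a. The arrays share their days and combinations, so such values describe a common course and carry no test. Among 12097 other genes, 240 (1.98%) had an r of at least 0.95 with the mean of the 8, led by Polr3gl at 0.998, Pcmtd1 at 0.996 and Smarca2, a SWI/SNF ATPase, at 0.995. Next came Spata6, Fam76a, Mme, Kif5c, Hagh, Kif16b and Tbc1d24, at 0.992 to 0.994. For single genes the nearest courses were those of Fabp7 and Ggct for Jam2 (both 0.999). Fabp7, a fatty acid binding protein of neural progenitors, read 847, 2023 and 3404 on the O(WT)SK arrays and 991, 2431 and 4389 on the O(5R)SK arrays. The 2 nearest were Zfp810 and Iqgap2 for Tfcp2l1, Fam43a and Fchsd1 for Fbxo15, P4ha3 and Rhobtb1 for L1td1, and Ube2b and Tmem167b for Utf1. They were Armcx1 and Ackr3 for Fgf4, Zfp33b and Col20a1 for Dppa5a, and Rab11a and Pth1r for Esrrb.

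Of 40 other listed genes of the pluripotent state, 37 are on the array. Of these, 12 were above background on all 6 arrays and 17 on none, among them Nanog (4.06 to 16.7), Zfp42 (2.15 to 15.5), Prdm14, Nr0b1, Sall4, Lin28a, Dppa2, Dppa3 and Dppa4. Only 14 passed the filter on low values. Among these, 1 rose from day 3 to day 7 and 3 fell by limma, where 6.52% of all tested genes rose and 3.68% fell (823 and 464 genes, together 10.2%, or 578 and 593 with the arrays set to a common median). None of the 14 passed for the factor difference or the slopes in limma, 2 of them (Cdh1 and Alpl) having an unadjusted p under 0.05 for the factor, against 9.35% of all genes.

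The one that rose was Cdh1, the epithelial cadherin, at 102, 170 and 252 on the O(WT)SK arrays and 133, 256 and 665 on the O(5R)SK arrays. Its O(5R)SK values were the higher on each day, and day 7 exceeded day 3 by 1.69 (SE 0.265, limma adjusted p = 0.0321). Those that fell were Klf2, by 1.11 (limma adjusted p = 0.0178), Klf5, by 0.82 (0.0334), and Zfp281, by 0.58 (0.0344), all transcription factors that fibroblasts express too. Alpl, the phosphatase stained to find reprogramming colonies, read 23.8, 33.6 and 32.2 on the O(WT)SK arrays and 48.8, 97.6 and 128 on the O(5R)SK arrays. Its groups did not overlap, and the mean difference was 1.16 (SE 0.183, limma adjusted p = 0.296). The O(WT)SK arrays of days 3 and 7 lay below background, and Alpl passed the filter on low values only through O(5R)SK. Nothing is therefore read from its factor difference or from its unadjusted p. The calls on days rest on both arrays of days 3 and 7: without any 1 of those 4 arrays, 0 of 12622 genes passed.

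**Figure D5:**
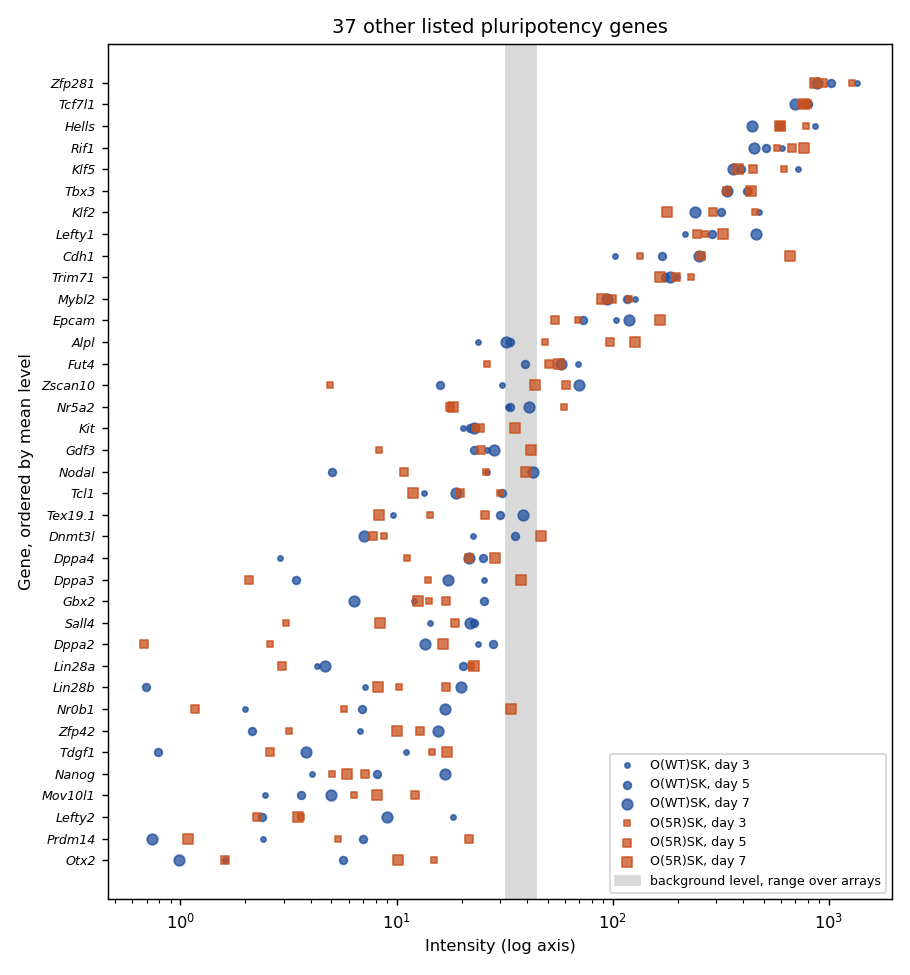
Intensity (log axis) of the 37 other listed pluripotency genes on each array, ordered by mean level, with the range of the background level as a grey band. In 17 genes, Nanog and Zfp42 among them, every point lies at or below the background level of its array.

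Genes that act with the 8 were looked at through lists chosen for their function. Each count of genes that rose stands beside 6.52% of all tested genes (578 of 12622 with a common median), and each count that fell beside 3.68%. Among FGF ligands, 6 of 12 were tested and Fgf7 and Fgf18 rose. Fgf7, a ligand made by mesenchyme for epithelium, read 231, 375 and 491 on the O(WT)SK arrays and 213, 410.4 and 536 on the O(5R)SK arrays. Its arrays of different days did not overlap, and day 7 exceeded day 3 by 1.15 (limma adjusted p = 0.0142). Fgf18 exceeded it by 1.21 (limma adjusted p = 0.0187), while Fgf5, Fgf8, Fgf15 and Fgf21 were above background on no array. Of the FGF receptors and feedback genes, 13 of 14 were tested and 0 passed for day or factor, 3 having an unadjusted p under 0.05 for the factor in limma, against 9.35% of all genes. Fgfr1, the receptor of mesenchymal cells, stayed between 1050.0 and 1215.

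In the LIF and STAT3 list, upstream of Tfcp2l1, 1 of 5 tested genes rose. This was Socs3, the feedback inhibitor that STAT3 induces, at 1567, 1625 and 2496 on the O(WT)SK arrays and 1813, 2278 and 4231 on the O(5R)SK arrays. O(5R)SK was the higher on each day, and day 7 exceeded day 3 by 0.94 (SE 0.158, limma adjusted p = 0.036). The LIF receptor gene Lifr differed by 0.93 (limma adjusted p = 0.0739).

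Among relatives, F11r, which encodes another junctional adhesion molecule, rose by 0.88 (limma adjusted p = 0.0229), 1 of 5 tested in its list, while Jam3 differed by 0.16 (0.333). In the CP2 and grainyhead family 1 of 3 tested rose: Tfcp2, by 0.66 (limma adjusted p = 0.0281). None of the 2 tested estrogen-related receptors, 2 KH domain relatives and 2 F-box partners passed, Esrra differing by -0.22 (0.311) and Cul1 by -0.07 (0.676).

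Markers of other cell types bear on genes that such cells also use, and were read beside them. Endothelial cells express Jam2. As for the lists above, 6.52% of all tested genes rose and 3.68% fell. Of 8 endothelial markers 5 were tested and 0 passed. Above background on every array were 4 of the 8 markers, while Cdh5 and Tie1 were above it on none. The summed intensity of the list was 742 to 813 with O(WT)SK and 815 to 986 with O(5R)SK. For trophoblast, which uses Esrrb, Krt8 rose by 1.18 (limma adjusted p = 0.0391), 1 of 4 tested of 8. Of the 8 trophoblast markers 3 were above background on every array, and Elf5 and Plac1 nowhere. The sums were 496 to 725 with O(WT)SK and 499 to 745 with O(5R)SK. For primitive endoderm Dab2 rose by 0.61 (limma adjusted p = 0.036), 1 of 4 tested of 8. Of the 8 primitive endoderm markers 3 were above background on every array, and Foxa2 and Afp nowhere. The sums were 1753 to 2315 with O(WT)SK and 1883 to 2700.2 with O(5R)SK.

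Germ cells use Utf1 and Dppa5a. Of 6 germ cell markers 5 were above background on no array, while Stra8 was above it on all 6 arrays, at 42.1 to 67.4. Of 4 tested neural markers 0 passed. All 5 tested macrophage markers fell, with sums of 8212, 4578 and 3219 on days 3, 5 and 7 on the O(WT)SK arrays and 7692, 4110.4 and 2753 on the O(5R)SK arrays. Of the 10 fibroblast markers Thy1 and Postn fell, and the sums were 131375 to 143041 with O(WT)SK and 107501 to 123505 with O(5R)SK. The part of the cell mixture in the levels of the 8 genes was not tested.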

How the data were processed

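Groups and days come from the labels. The deposited values are linear intensities, 1 per probe set and array, which the authors computed using affy according to the labels (per the submitters' processing notes). Its version and summary method: not given in the sources used here. Of 45101 probe sets, 34958 name 1 gene, 932 several and 9211 none, and 34754 of the first matched RefSeq's gene table for GRCm38.p6, with 0 symbols changed. Control probe sets (64) were left out. Values were taken as log2(intensity + 16), which understates changes of dim genes. The brightest probe set stood for a gene, and the 12622 genes above the 40th percentile of probe set means were tested, all 8 among them.

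Tests used limma 3.58.1 in R 4.3.3 (lmFit and eBayes, tested on simulated data), with Benjamini-Hochberg adjustment over all tested genes. Factor combination and day (3 levels) gave the factor and day differences; factor combination by day as a number gave the slopes. Each fit has 2 residual degrees of freedom. No p-value covers more than the spread among the 6 arrays, which can be technical, and the number of arrays limits the precision. Alternatives were other pseudocounts, filters, probe set rules, scalings and priors, and each array left out, and, chosen after seeing the data, values below background raised to it. Figures used Python 3.11.15, pandas 2.3.3 and matplotlib 3.10.9. Promoters are RefSeq's.

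The 8 genes and all lists were chosen with earlier results of these data known. Named are all 8 genes with their probe sets, per list the genes past the threshold and the brightest, and the genes most alike by Pearson r (10 for the mean, 2 per gene; no predicted genes). Other listed genes are named where a count includes them, and were chosen after their values were seen.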

Additional observations from a re-analysis of the deposited data

Results flagged for a closer look

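Dppa5a moved in opposite directions in the 2 factor combinations: day 7 differed from day 3 by -0.26 with O(WT)SK and by 0.65 with O(5R)SK. Each value rests on 1 array per day, with levels near background and the O(5R)SK day 3 array below it. The SD of Dppa5a over the 6 arrays, 0.29, was smaller than the median SD of the olfactory receptor probe sets, 0.43. The difference of slopes, 0.91 (SE 0.377), did not pass (limma adjusted p = 0.693).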

How the results depend on the processing

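The factor difference was called for 0 genes as reported, for 2 with a pseudocount of 64, for 27 (26 higher and 1 lower with O(5R)SK) with the filter at the 60th percentile and for 82 (65 and 17) with a trended, robust prior. It was called for 0 under the other alternatives, and leaving out 1 array gave 0 to 0. The difference of slopes was called for 0 genes, and for 2 with the trended, robust prior. Calls of day 7 against day 3 numbered 1287, and 1971 with a pseudocount of 64, 0 with no filter, 2202 with the filter at the 60th percentile and 2846 with the trended, robust prior. Leaving out 1 array gave 0 to 1073. The genes at least 2-fold higher on day 7 numbered 3 in place of 5 with a pseudocount of 64 and with the mean of probe sets, and 2 when values below background were raised to it, an alternative chosen after seeing the data. The cause of these changes was not tested.

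Of 224 alternative values for the factor and slope differences of the 8 genes, 17 reversed in sign. The factor difference of Esrrb was -0.071 with the mean of probe sets, -0.018 with quantile normalization and -0.0091 with a common median, and -0.29 to 0.29 without 1 array. That of Dppa5a was -0.38 to 0.072 without 1 array. The slope difference of Tfcp2l1 was 0.33 with a pseudocount of 64 and 1.07 with values below background raised to it, and with the mean of probe sets that of Jam2 was -0.16 and that of Esrrb -0.60. Without 1 array the slope differences ran from -2.57 to 1.72 for Tfcp2l1, -2.26 to 0.73 for Utf1, -0.23 to 0.50 for Jam2 and -0.48 to 1.97 for Esrrb. L1td1 kept a positive factor difference under every alternative. Tfcp2l1 and Fbxo15 did so wherever they were tested, but neither was tested with the stricter filter on low values. Tfcp2l1 was also not tested with the mean of probe sets. Its other probe sets, never above background, had mean differences of -0.09 and -0.21. Nothing is read from the kept sign of Tfcp2l1 and Fbxo15, which passed the filter on low values only through O(5R)SK. Signal over background limits Tfcp2l1, Fbxo15, Utf1, Dppa5a and Esrrb. The labels carry no replicate numbers, and O(5R)SK and O(WT)SK were paired by day, as a term of the fit.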
